A study of Mus musculus with 18 samples.

Results

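SR proteins and heterogeneous nuclear ribonucleoproteins (hnRNPs) are large, abundant families of RNA-binding proteins that steer pre-mRNA splicing. SR proteins carry a domain rich in arginine and serine, bind exonic enhancers and help the spliceosome to recognise exons, while many hnRNPs coat nascent RNA and often silence exons. Many genes of both families limit their own output by splicing in an exon or keeping an intron that sends the transcript to nonsense-mediated decay, the pathway that destroys mRNAs with an early stop codon. The genes described here are those whose symbol is SRSF followed by a number or starts with HNRNP, with pseudogene names left out. They number 31 of the 23626 named entries of the table, 11 of them SR genes and 20 hnRNP genes.

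Messenger RNA was sequenced from 18 libraries of mouse thyroid cells at 20 weeks, each made from 9000 to 20000 cells sorted for a yellow fluorescent protein. Of the tumour libraries, 4 carried BrafV600E together with K5-Tert (K5-Tert tumours), 7 carried BrafV600E together with Tert-123C>T (Tert-123 tumours) and 4 carried BrafV600E alone (Braf tumours). BrafV600E is an activated form of the kinase Braf, Tert is the catalytic subunit of telomerase, K5-Tert is a transgene named for the keratin 5 promoter, and Tert-123C>T is a change in the Tert promoter. The other 3 libraries carried no Braf mutation and were 1 pool each of K5-Tert, Tert-123 and wild-type (WT) cells, with the number of animals in a pool not given. All 18 were untreated, and the labels give every one, the pools included, a thyroid tumour as its source. The labels do not say that each tumour library is a separate animal, so p-values measure only the spread between these libraries. The sample numbers of the K5-Tert tumours run in a range of their own; whether they were collected apart from the other tumours is not given, and a separate collection and the K5-Tert genotype cannot be told apart.

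Levels are the deposited values, read as TPM (transcript abundance corrected for transcript length and scaled to the same total in each library), with unknown read depth. The noncoding RNA Rpph1 took 43.7% to 68.8% of the TPM of a library. The summed level of 10 thyroid markers was 381 to 492 TPM in K5-Tert tumours, 377 to 1231 TPM in Tert-123 tumours, 595 to 756 TPM in Braf tumours and 26222 to 32284 TPM in the pools. 5 alveolar type 2 markers summed to 4705 to 12518 TPM in the tumours, against 7.34 to 77.2 TPM in the pools. The Tert-123 pool stood apart from the other pools, with summed levels of 172 TPM for T cell, 758 TPM for endothelial, 2058 TPM for C cell and 633 TPM for parathyroid markers. K5-Tert tumours 2, 3 and 4 stood apart from the other tumours: MALAT1, a nuclear-retained RNA, had 1191, 1908 and 1050 TPM there, 5902 TPM in K5-Tert tumour 1, 5072 to 8420 TPM in Tert-123 tumours and 5762 to 7496 TPM in Braf tumours.

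HNRNPA1, in textbooks one of the most abundant hnRNPs, was nearly absent from the table. It had 1.08, 0.83, 0.569 and 0.351 TPM in K5-Tert tumours 1 to 4, a lowest, median and highest value of 0, 1.31 and 1.99 TPM in Tert-123 tumours, and 1.56, 1.58, 2.80 and 0.725 TPM in Braf tumours 1 to 4. The K5-Tert, Tert-123 and WT pools had 8.37, 0.211 and 0 TPM. All tumour libraries were thus low, and their groups overlapped. In the mouse annotation GENCODE M21, 8 pseudogenes match at least 50% of its coding sequence at 95% identity or more, and 3 of them have an entry in the table. Among these, HNRNPA1L2-PS2 matches HNRNPA1 at 97.7% of 752 aligned bases and GM5643 at 98.4% of 755. HNRNPA1L2-PS2 was listed at 1.05 to 1.34 TPM in K5-Tert tumours, 1.55 to 9.68 TPM in Tert-123 tumours, 1.04 to 3.35 TPM in Braf tumours and 0 to 4.85 TPM in the pools, while GM5643 stayed below 1 TPM. The sources used here do not say how reads that fit several copies were counted, so reads of HNRNPA1 may have been divided or dropped. HNRNPA3, with 21 near-identical genes of which 20 are pseudogenes, had 1.36 to 5.02 TPM in K5-Tert tumours, 2.87 to 4.55 TPM in Tert-123 tumours, 3.94 to 6.68 TPM in Braf tumours and 3.26 to 6.98 TPM in the pools, and is uncertain for the same reason. HNRNPF has 6 such near-identical genes, SRSF3 has 4, HNRNPK and SRSF10 have 2 each, and HNRNPH2, HNRNPR, SRSF4 and SRSF5 have 1 each.

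28 of the 31 genes, 10 SR and 18 hnRNP, reached 10 TPM in at least 4 libraries and entered the tests. The other 3 were HNRNPA1, HNRNPA3 and SRSF12, the last of which stayed below 1 TPM in every library. On the TPM scale and averaged over all libraries, SRSF5 was the highest SR gene with 315 TPM, followed by SRSF2 with 86.8 TPM and SRSF9 with 60.8 TPM. HNRNPA2B1 (254 TPM), HNRNPK (209 TPM) and HNRNPAB (186 TPM) led the hnRNP genes. SRSF5 alone made 28.2% to 38.1% of the summed SR level in K5-Tert tumours, 36.0% to 47.1% in Tert-123 tumours, 45.6% to 47.4% in Braf tumours and 35.0% to 41.6% in the pools. The 3 leading hnRNPs have different roles: HNRNPA2B1 binds AG-rich RNA and takes part in splicing and mRNA transport, HNRNPK binds cytosine-rich RNA and DNA, and HNRNPAB is related to HNRNPD, which binds the AU-rich elements of unstable mRNAs. The genes sit on many chromosomes, but share a feature of their annotated transcripts. Of the 31, 19 (61.3%) have a transcript annotated as a target of nonsense-mediated decay, against 21.6% of 20555 coding genes in the table, and 22 (71.0%) have one with a retained intron, against 44.0%.

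K5-Tert tumours were set against Braf tumours to ask what the Tert transgene goes with in a Braf-driven tumour. Of the 28 genes tested, 14 were lower in K5-Tert tumours and 0 were higher. They were 7 of 10 SR genes and 7 of 18 hnRNP genes, and their calls come from limma across 7825 genes with a Benjamini-Hochberg adjusted p under 0.05. In the same fit 21.2% of all genes were lower and 0.626% higher, and the median gene stood at -0.47 on the log2 scale. The median over the 28 genes was -0.80. With TMM-type factors, which centre the libraries on the bulk of their genes and bring the median gene to 0, 10 of the 28 were lower and 0 higher, against 8.81% and 5.56% of all genes, and the median over the 28 was -0.33. All 10 were among the 14. In bulk RNA, fewer cells of a type and less RNA per cell cannot be told apart.

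SRSF5, an SR protein that promotes exon inclusion, differed most. It had 240, 82.6, 149 and 75.4 TPM in K5-Tert tumours 1 to 4 and 387, 405, 499 and 429 TPM in Braf tumours 1 to 4. Every K5-Tert tumour lay below every Braf tumour, with K5-Tert tumour 1 the nearest. The log2 fold change was -1.80 ± 0.30 (SE; limma, Benjamini-Hochberg adjusted p = 0.00235), a level 0.287 times that of Braf tumours. With TMM-type factors it was -1.30 ± 0.20 (limma, adjusted p = 0.00224). SRSF11, which contacts the factors that recognise the 3′ splice site, had 41.6, 18.4, 28.6 and 18.3 TPM in K5-Tert tumours 1 to 4 and 65.4, 68.6, 81.6 and 69.8 TPM in Braf tumours 1 to 4. These groups did not overlap either, and tumours 2 and 4 were again the lowest. SRSF11 changed by -1.46 ± 0.26 on the log2 scale (limma, adjusted p = 0.00397), or -0.97 ± 0.14 with TMM-type factors (limma, adjusted p = 0.00185).

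**Figure D1:**
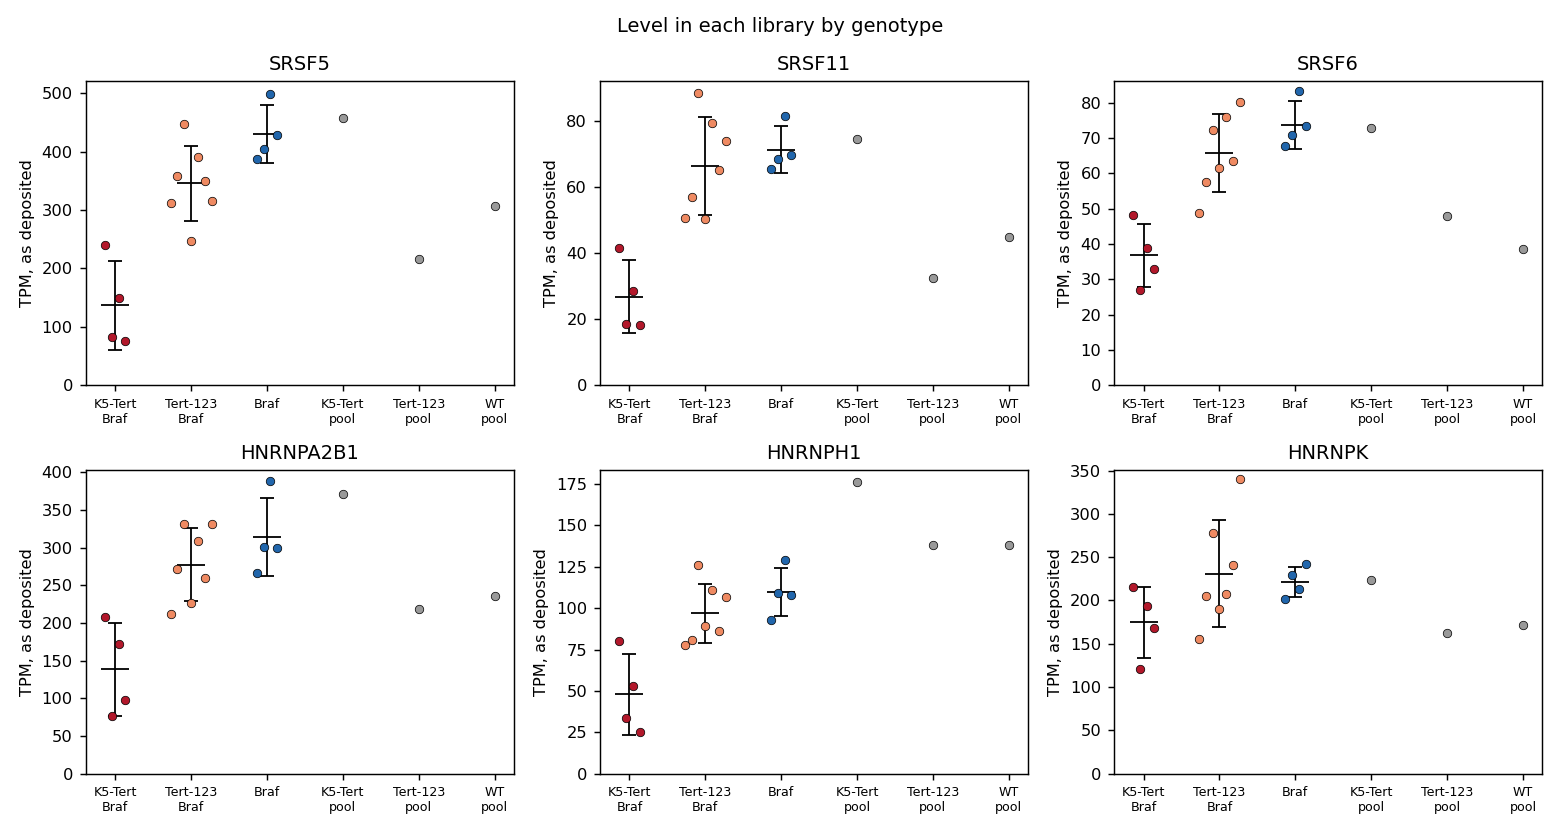
Level in TPM (y axis, from 0) of 6 splicing factor genes in each library (points), by genotype (x axis), with the mean (long bar) and SD (capped line) of the tumour groups with 4, 7 and 4 libraries; each pool is 1 library. The K5-Tert tumours lie below all Braf tumours for SRSF5, SRSF11, SRSF6, HNRNPA2B1 and HNRNPH1, and overlap them for HNRNPK.

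Among the hnRNPs, the smallest p-values belonged to HNRNPA2B1 and HNRNPH1. HNRNPA2B1 had 208, 76.8, 172 and 98.2 TPM in K5-Tert tumours 1 to 4 and 267, 301, 388 and 300 TPM in Braf tumours 1 to 4, with no overlap. Its log2 fold change was -1.27 ± 0.28 (limma, adjusted p = 0.00715), and -0.77 ± 0.14 with TMM-type factors (limma, adjusted p = 0.00441). HNRNPH1, which binds runs of guanine near splice sites, had 80.4, 33.5, 52.9 and 25.0 TPM in K5-Tert tumours 1 to 4 and 93.1, 109, 129 and 108 TPM in Braf tumours 1 to 4. The groups were apart, although K5-Tert tumour 1 came close to Braf tumour 1. HNRNPH1 changed by -1.30 ± 0.29 (limma, adjusted p = 0.00754), and by -0.81 ± 0.16 with TMM-type factors (limma, adjusted p = 0.00651).

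HNRNPK, with a mean of 174 ± 40.9 TPM in K5-Tert tumours and 222 ± 17.8 TPM in Braf tumours (SD, n = 4 each), did not pass the test. Its values were 216, 121, 194 and 168 TPM in K5-Tert tumours 1 to 4 and 202, 229, 213 and 242 TPM in Braf tumours 1 to 4, which overlapped. Its log2 fold change was -0.37 ± 0.25, or 0.13 ± 0.15 with TMM-type factors. HNRNPAB, at 190, 77.0, 162 and 122.7 TPM in K5-Tert tumours 1 to 4 and 169, 183, 200 and 208 TPM in Braf tumours 1 to 4, also overlapped and did not pass. SRSF9 had 62.1, 36.6, 52.5 and 30.2 TPM in K5-Tert tumours 1 to 4 and 66.7, 69.2, 75.6 and 66.6 TPM in Braf tumours 1 to 4; its groups did not overlap, but its log2 fold change of -0.66 ± 0.25 missed the threshold (limma, adjusted p = 0.0627). SRSF2 had 72.7, 31.0, 54.7 and 30 TPM in K5-Tert tumours 1 to 4 and 68.5, 81.7, 99.0 and 78.8 TPM in Braf tumours 1 to 4. Its K5-Tert tumour 1 lay inside the Braf range, and its change of -0.87 ± 0.30 passed on the deposited scale (limma, adjusted p = 0.0420) but not with TMM-type factors.

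Within a subfamily some genes passed the test and others did not. HNRNPH1 and HNRNPH3 were lower on both scales, while their relatives HNRNPH2 and HNRNPF did not pass on either; HNRNPF changed by -0.49 ± 0.28, or 0.00 ± 0.14 with TMM-type factors. HNRNPU, a chromatin-associated hnRNP, was lower on both scales (log2 fold changes of -1.16 as deposited and -0.66 with TMM-type factors), whereas its relatives HNRNPUL1 (-0.59 and -0.10) and HNRNPUL2 (-0.71 and -0.23) did not pass. HNRNPD and HNRNPDL, at -1.08 and -0.98, passed on the deposited scale alone. HNRNPC, which binds runs of uridine, and HNRNPL, which binds CA repeats, had log2 fold changes of -0.37 and -0.33, and of 0.12 and 0.17 with TMM-type factors; neither passed. Among the SR genes, SRSF1, SRSF4 and SRSF6 were lower on both scales (SRSF6 by -1.01 ± 0.22 and -0.52 ± 0.11), and SRSF7, which couples splicing to mRNA export, passed on the deposited scale alone with -0.80 ± 0.25. SRSF3, another export adaptor, and SRSF10, a splicing repressor when it is dephosphorylated, did not pass on either scale. No difference between such relatives was tested.

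**Figure D2:**
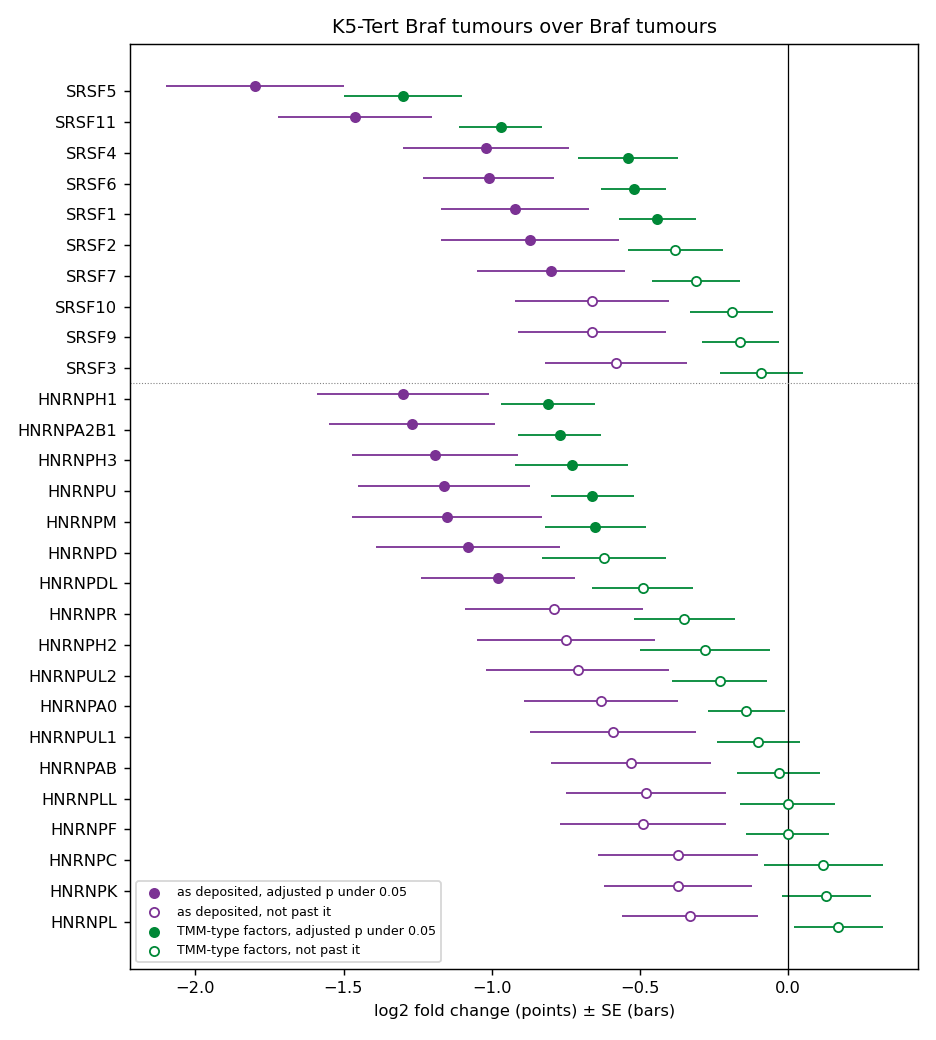
Log2 fold change of K5-Tert tumours over Braf tumours (x axis; points, bars ± SE) for the 28 genes tested, SR genes above the dotted line, on the deposited scale and with TMM-type factors; filled points passed an adjusted p of 0.05. All 28 points are below 0 on the deposited scale and 24 with TMM-type factors, where SRSF5 is lowest at -1.30.

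8 genes were lower under all 5 scalings tried, namely HNRNPA2B1, HNRNPH1, HNRNPH3, HNRNPM, SRSF4, SRSF5, SRSF6 and SRSF11, against 4.38% of all genes. All K5-Tert tumours lay below all Braf tumours for 15 of the 28 genes on the deposited scale, as for 16.0% of all genes, and for 13 with TMM-type factors, as for 11.3%. The count of 14 on the deposited scale rested on few libraries. Without K5-Tert tumour 2, without K5-Tert tumour 4 or without Braf tumour 3 it was 6 each, when 431, 421 and 388 of all 7825 genes were lower, and without K5-Tert tumour 1 it was 23, when 3607 were. Without both K5-Tert tumours 2 and 4, no gene of the 28 passed on the deposited scale, as 17 of all genes did, and SRSF5 stood at -1.17 ± 0.26 (limma, adjusted p = 0.0569). With TMM-type factors and without those tumours, 4 passed, SRSF5 (-1.05), SRSF11 (-0.90), SRSF6 (-0.63) and HNRNPH1 (-0.61), as did 115 of all genes. With K5-Tert tumour 1 as the lone K5-Tert library none passed, against 4 of all genes, and the values were -0.85 ± 0.27 for SRSF5 and -0.78 ± 0.21 for SRSF11, on the assumption that this library varies like the others.

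A ratio of 2 genes within a library is not changed by 1 factor per library, such as a TMM-type factor, although quantile normalization and the removal of a length trend would change it. The pairs that follow join genes with a large and a small difference, were chosen after their values were seen and carry no test. SRSF5 over SRSF3 was 6.64, 3.76, 4.33 and 4.08 in K5-Tert tumours 1 to 4, 7.36 to 11.0 in Tert-123 tumours and 11.7, 9.50, 9.69 and 11.8 in Braf tumours 1 to 4. HNRNPH1 over HNRNPF was 1.29, 1.30, 0.938 and 0.730 in K5-Tert tumours 1 to 4, 1.64 to 2.45 in Tert-123 tumours and 2.24, 1.70, 1.67 and 1.78 in Braf tumours 1 to 4. HNRNPA2B1 over HNRNPK was 0.586 to 0.964 in K5-Tert tumours, 0.976 to 1.49 in Tert-123 tumours and 1.24 to 1.82 in Braf tumours, and SRSF11 over SRSF9 was 0.504 to 0.670 in K5-Tert tumours, 0.891 to 1.07 in Tert-123 tumours and 0.981 to 1.08 in Braf tumours. In each of these ratios K5-Tert tumour 1, whose single levels came closest to the Braf range, still lay below the 11 other tumours. In the pools SRSF5 over SRSF3 was 7.01, 4.90 and 6.82 and HNRNPH1 over HNRNPF was 3.11, 2.91 and 3.70 (K5-Tert, Tert-123 and WT), below and above all Braf tumours. HNRNPA2B1 over HNRNPK was 1.66, 1.35 and 1.37 in those pools, inside the Braf range. SRSF11 over SRSF9 was 1.24, 0.798 and 0.693, on both sides of the Braf tumours, with the WT pool close to K5-Tert tumour 1.

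**Figure D3:**
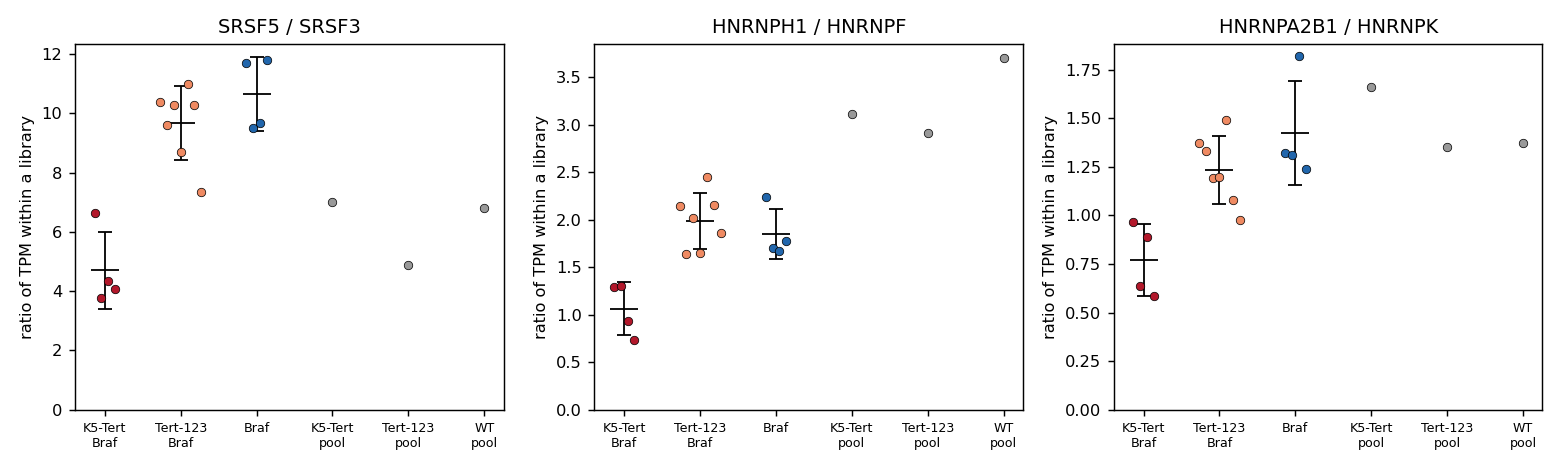
Ratio of the TPM of 2 genes within each library (y axis, from 0; points), by genotype (x axis), with the mean (long bar) and SD (capped line) of the tumour groups; each pool is 1 library. All 4 K5-Tert tumours have lower ratios than the 11 other tumours in the 3 panels shown.

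Several library properties moved with these differences, and their part in them was not tested. For each library, a gene's log2 level less its mean over all tumours was correlated with transcript length across genes (Spearman's rho, a description). This relative length trend was 0.30, -0.54, -0.23 and -0.42 in K5-Tert tumours 1 to 4. It was -0.18 to 0.31 in Tert-123 tumours and 0.13 to 0.36 in Braf tumours. The K5-Tert over Braf fold change itself fell with transcript length over 7773 genes (rho -0.40). Over the 28 genes rho was 0.06, and it was 0.41 with the length trend removed. The longest coding transcript of SRSF5 has 1568 bases, and the median over coding genes is 2792. With the length trend removed, 8 of the 28 were lower, with SRSF5 at -1.49, as were 430 of 7773 genes. Genes listed at 1 TPM or more numbered 10958 to 12699 in K5-Tert tumours, against 13275 to 13904 in Braf tumours. With Xist as a covariate, 4 of the 28 were lower (SRSF5, SRSF6, SRSF11 and HNRNPH3), as were 221 of 7825 genes. The median over the 28 was then -0.86, and HNRNPA2B1 (-1.25 ± 0.35) and HNRNPH1 (-1.28 ± 0.37) kept their size with wider errors. Summed markers of other cells ranged from 212 to 1676 TPM (fibroblast, 6 genes), 96.1 to 661 TPM (leukocyte and macrophage, 7 genes), 9.35 to 103 TPM (endothelial, 5 genes) and 5.25 to 32.4 TPM (T cell, 5 genes) in K5-Tert tumours. In Braf tumours the same sums were 161 to 697, 121 to 169, 18.5 to 24.0 and 7.28 to 10.5 TPM, and none of the 15 tested genes of these lists passed in this comparison. In K5-Tert tumours 6 of 6 fibroblast, 6 or 7 of 7 leukocyte, 3 to 5 of 5 endothelial and 2 to 4 of 5 T cell markers reached 1 TPM. Of 6 tested thyroid markers 3 were lower in K5-Tert tumours on the deposited scale, HHEX, NKX2-1 and PAX8, against 21.2% of all genes. With TMM-type factors 2 were lower, HHEX and NKX2-1, against 8.81%.

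Of the 14 genes lower in K5-Tert tumours, 12 have an annotated decay-targeted transcript and 13 a retained-intron transcript, against 6 and 8 of the 14 that did not pass. With TMM-type factors the counts were 8 and 9 of the 10 lower genes and 10 and 12 of the other 18. The table gives 1 level per gene, so isoforms and retained introns themselves were not analysed here.

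Promoters were compared because the genes of both families moved together in part. RefSeq promoter windows (build GRCm38.p6), here the 250 bases before a gene's start, were matched for 29 of the 31 genes; SRSF5, the gene with the largest difference, and SRSF3, without a called difference, are shown to contrast their motifs. The last 120 bases before the start are printed 5′ to 3′, at chr12:80945379-80945498 (plus strand) and chr17:29032540-29032659 (plus strand), with motifs found on either strand in capitals.
SRSF5: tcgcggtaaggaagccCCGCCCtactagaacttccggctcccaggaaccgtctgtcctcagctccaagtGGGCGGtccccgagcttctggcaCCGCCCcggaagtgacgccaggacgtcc
SRSF3: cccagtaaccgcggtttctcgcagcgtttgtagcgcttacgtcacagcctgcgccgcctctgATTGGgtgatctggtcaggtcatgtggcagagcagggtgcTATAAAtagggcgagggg
SRSF5 shows 3 GC boxes (GGGCGG), the site of Sp-type factors, and SRSF3 a CCAAT box (CCAAT), the site of NF-Y, and a TATA box (TATAAA). The CCAAT letters were present in 2 of the 10 genes lower with TMM-type factors, in 12 of the other 16 tested genes with a promoter, in 39.2% of 6187 tested genes and in 33.8% of all 32851 promoter windows. GGGCGG was present in 24 of the 29 genes (82.8%), against 67.5% of tested genes and 32.7% of all windows. It was present in 8 of the 10 lower genes (80.0%) and in 13 of the other 16 (81.2%). TATAAA and the E-box CACGTG were present in 3 of 29 each. TATAAA was present in 7.8% of tested genes and 12.4% of all windows, and CACGTG in 10.5% and 6.0%. The cyclic AMP element TGACGTCA was present in 0 of 29, against 3.2% of tested genes and 1.5% of all windows. Among the 10 lower genes and the other 16, TATAAA was present in 1 and 2, and CACGTG in 0 and 2. Both strands were searched, any of a gene's windows counted, and these matches are descriptions of letters, with no test.

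Other splicing genes were read from the same fit by list. In it 21.2% of all 7825 genes were lower, and 8.81% with TMM-type factors. Without K5-Tert tumour 2, K5-Tert tumour 4 or Braf tumour 3, 431, 421 and 388 of all genes were lower. Without Braf tumour 2 or 4 it was 720 and 727. Without both K5-Tert tumours 2 and 4 it was 17, or 115 with TMM-type factors. Of 21 SR-related proteins, 16 were lower in K5-Tert than in Braf tumours and 0 higher (14 and 0 with TMM-type factors; list median -1.12 and -0.67). ARGLU1 had 47.9, 10.8, 34.8 and 14.0 TPM in K5-Tert tumours 1 to 4 and 96.6, 97.9, 112 and 97.1 TPM in Braf tumours 1 to 4, with a log2 fold change of -2.11 ± 0.36 (limma, adjusted p = 0.00272). SREK1 changed by -1.83 ± 0.30 and LUC7L3, a U1-associated protein, by -1.50 ± 0.28. The SR-related count was 8 without K5-Tert tumour 2, without K5-Tert tumour 4 or without Braf tumour 3, and 0 without K5-Tert tumours 2 and 4 (6 with TMM-type factors). Of 26 other hnRNP-type and tissue splicing regulators, 14 were lower and 0 higher (10 and 0 with TMM-type factors). They included PTBP2 (-1.30 ± 0.26) and TIA1 (-1.28 ± 0.27), while PTBP1, the repressor found in most tissues, had -0.36 ± 0.26 and did not pass. That count was 5 without K5-Tert tumour 2, without K5-Tert tumour 4 or without Braf tumour 3, 6 without Braf tumour 4, 7 without Braf tumour 2, and 0 on either scale without K5-Tert tumours 2 and 4.

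Genes of the core spliceosome were counted in the same way, beside the same shares of 21.2% and 8.81% of all genes. For left-out libraries, the numbers of all genes lower given above apply here too. They were 3607 without K5-Tert tumour 1, 1427 without Braf tumour 1 and 1399 without Tert-123 tumour 2. Of 24 U1, U2 and Sm proteins, 6 were lower and 0 higher in K5-Tert tumours, and with TMM-type factors 1 was lower, SNRNP70 (-1.41 and -0.91), with a list median of 0.14. The 6 became 1 without K5-Tert tumour 2 or 4 or without Braf tumour 2, 3 or 4, and 10 without K5-Tert tumour 1. Of 10 U5 and tri-snRNP proteins, 2 were lower, and 0 with TMM-type factors. Of 7 tested SR protein kinases and import factors, which phosphorylate SR proteins or carry them into the nucleus, 3 were lower (CLK1, CLK4 and SRPK2) and 0 with TMM-type factors. The kinase count was 0 without K5-Tert tumour 2 or 4 or Braf tumour 3, 1 without Braf tumour 2 and 6 without K5-Tert tumour 1. The U5 count was 0 without K5-Tert tumour 2 or 4 or Braf tumour 2, 3 or 4, 1 without Braf tumour 1, and 7 without K5-Tert tumour 1. Of 14 exon junction and decay factors, 8 were lower, among them UPF3B (-1.43 ± 0.28) and UPF2 (-1.21 ± 0.27), and 4 with TMM-type factors. Their count was 2 without K5-Tert tumour 2 or 4, 3 without Braf tumour 2, 3 or 4, and 5 without Tert-123 tumour 2. All 3 nuclear-retained RNAs, MALAT1, NEAT1 and MEG3, were lower on both scales. Without K5-Tert tumours 2 and 4 these counts were 0 on the deposited scale, apart from 1 nuclear-retained RNA.

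**Figure D4:**
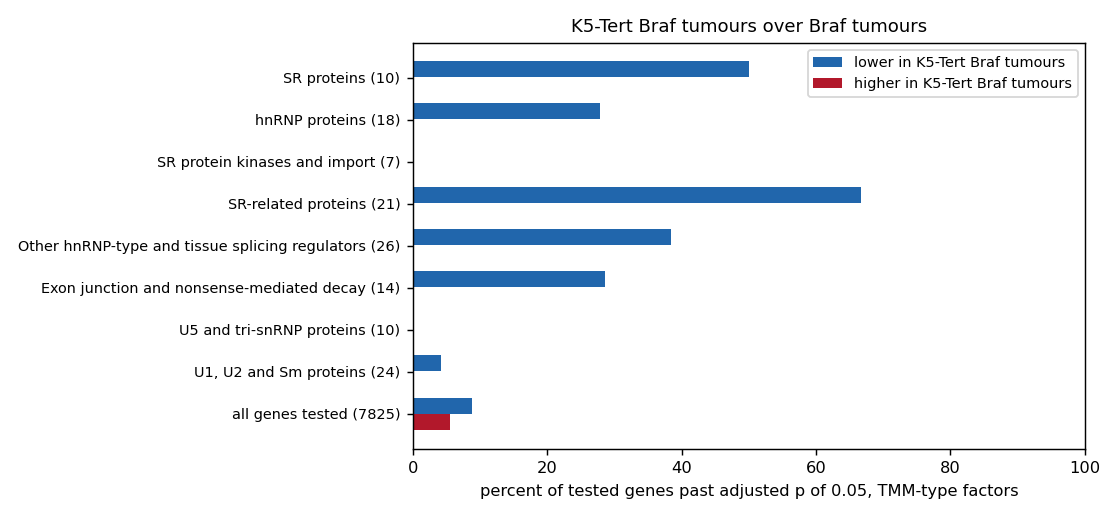
Percent of the tested genes of each list (number in brackets) that passed an adjusted p of 0.05 in K5-Tert over Braf tumours with TMM-type factors (x axis, from 0), lower in blue and higher in red. The shares lower are 50% of SR genes, 27.8% of hnRNP genes and 66.7% of SR-related genes, against 4.2% of U1, U2 and Sm genes and 8.8% of all genes.

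Tert-123 tumours were set against Braf tumours to ask the same of the Tert promoter change. None of the 28 genes passed the test in either direction (limma), as none of all 7825 genes did (0%), and none of the 28 had an unadjusted p under 0.05, against 51 of all genes. With TMM-type factors 2 of the 28 had an unadjusted p under 0.05, against 163 of all genes. The smallest p-value of the SR genes belonged to SRSF1, the founding SR protein, and that of the hnRNP genes to HNRNPF, a binder of guanine runs. SRSF1 had a lowest, median and highest value of 23.9, 27.0 and 34.5 TPM in Tert-123 tumours and 28.5, 33.9, 44.8 and 36.7 TPM in Braf tumours 1 to 4, with a log2 fold change of -0.32 ± 0.22 (limma, adjusted p = 0.9997). HNRNPF had 36.4, 49.0 and 62.3 TPM in Tert-123 tumours and 41.6, 64.2, 77.1 and 60.4 TPM in Braf tumours 1 to 4, and changed by -0.29 ± 0.25. Both genes overlapped between the groups. Over the 28 genes the log2 fold changes ran from -0.33 for SRSF5 to 0.28 for SRSF2, with a median of -0.12. SRSF5 had a lowest, median and highest value of 246, 349 and 447 TPM in Tert-123 tumours, which overlapped the Braf range. No gene of the other splicing lists passed in this comparison either. With these errors, the data do not show that the levels are alike.

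K5-Tert tumours were also set against Tert-123 tumours, which share the K5-Tert libraries with the first comparison. 17 of the 28 genes were lower and 0 higher (limma), against 28.5% and 0.805% of all genes, and 10 were lower and 0 higher with TMM-type factors, against 8.79% and 6.43%. SRSF11 had a lowest, median and highest value of 50.4, 65.1 and 88.5 TPM in Tert-123 tumours, above all K5-Tert tumours, and changed by -1.33 ± 0.23 (limma, adjusted p = 0.00235; -0.84 ± 0.12 with TMM-type factors). SRSF5 changed by -1.47 ± 0.26 (limma, adjusted p = 0.00253), also without overlap. HNRNPA2B1, at 212, 272 and 332 TPM in Tert-123 tumours, changed by -1.09 ± 0.25 (limma, adjusted p = 0.00672) without overlap, while HNRNPH1, at 78.0, 89.3 and 126 TPM, changed by -1.11 ± 0.25 with 3 of 4 K5-Tert tumours below all Tert-123 tumours. SRSF2 was at 62.3, 112 and 148 TPM in Tert-123 tumours and changed by -1.16 ± 0.26, with the 3 lower K5-Tert tumours below that range. The groups did not overlap for 4 genes, HNRNPA2B1, SRSF5, SRSF6 and SRSF11, as for 5.19% of all genes, and with TMM-type factors also for HNRNPH1 and SRSF2 (6 genes, against 3.32%). 7 genes were lower under all 5 scalings (4.87% of all genes): HNRNPA2B1, HNRNPH1, HNRNPM, SRSF2, SRSF5, SRSF6 and SRSF11. The count of 17 became 7 without K5-Tert tumour 2, 8 without K5-Tert tumour 4 and 0 without both, when 525, 542 and 17 of all genes were lower, or 1 without both with TMM-type factors (SRSF11). Of the 21 SR-related proteins, 18 were lower and 0 higher (12 with TMM-type factors); that SR-related count was 9 without K5-Tert tumour 2 or 4 and 0 without both (3 with TMM-type factors).

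Tumours were set against the pools to ask what BrafV600E goes with, in a fit of all libraries with the Tert allele beside the Braf mutation. Each pool is 1 library, so the errors rest mostly on the tumours and assume that pools vary like them. The fit also takes the Braf difference to be the same with each Tert allele. 2 of the 28 genes, SRSF4 and HNRNPH1, were lower in tumours and 0 higher (limma), against 10% and 15.4% of all genes; both were also lower under all 5 scalings, as were 9.92% of all genes. SRSF4 had 44.5, 13.9, 29.9 and 14.4 TPM in K5-Tert tumours 1 to 4, a lowest, median and highest value of 39.6, 44.8 and 51.5 TPM in Tert-123 tumours, 49.4, 46.6, 47.7 and 45.7 TPM in Braf tumours 1 to 4, and 55.2, 71.9 and 71.5 TPM in the K5-Tert, Tert-123 and WT pools. Every tumour was below every pool on the deposited scale, and the log2 fold change was -0.83 ± 0.26 (limma, adjusted p = 0.0209). With TMM-type factors tumours and pools overlapped for SRSF4. The K5-Tert pool then had 46.3, against 50.7 in Braf tumour 1 and 47.3 and 49.2 in Tert-123 tumours 1 and 2. HNRNPH1 had 25.0 to 80.4 TPM in K5-Tert tumours, 78.0 to 126 TPM in Tert-123 tumours, 93.1 to 129 TPM in Braf tumours, and 176, 138 and 138 TPM in the K5-Tert, Tert-123 and WT pools, again without overlap. It changed by -0.94 ± 0.30 (limma, adjusted p = 0.0221). How many of all genes separate tumours from pools in this way was not counted. Without the K5-Tert pool, with SRSF4 at -0.64 and HNRNPH1 at -0.44, neither passed on the deposited scale, and 3 of the 28 were higher (HNRNPA0, SRSF6 and SRSF11), as were 1826 of all 7825 genes, with the median gene at 0.35. With TMM-type factors and without that pool both still passed, SRSF4 at -0.95 and HNRNPH1 at -0.76 (limma, adjusted p = 0.000873 and 0.00286). In that fit HNRNPA0 (0.68) and SRSF11 (0.51) passed as higher, as did 1532 of all 7825 genes, and SRSF6 (0.35) did not pass. Tumours and pools differ in their thyroid and alveolar markers as given above, and whether that moves these genes was not tested.

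With TMM-type factors 6 of the 28 were lower in tumours and 1 higher, against 18.5% and 21.7% of all genes. The lower ones were HNRNPH1 (-0.96 ± 0.16), SRSF4 (-0.85 ± 0.16), SRSF7 (-0.69 ± 0.16), SRSF3 (-0.58 ± 0.12), HNRNPH3 (-0.53 ± 0.16) and SRSF2 (-0.51 ± 0.19), and HNRNPA0, which binds AU-rich mRNAs, was higher (0.42 ± 0.15). HNRNPA0 passed without the K5-Tert pool (0.68), but not without the Tert-123 pool (0.33) or without the WT pool (0.25). SRSF2 no longer passed without the K5-Tert pool (-0.15) or without the WT pool (-0.59), nor did HNRNPH3 without the Tert-123 pool (-0.52). SRSF7 passed without each pool but was at -0.43 without the K5-Tert pool. SRSF5 had -0.23 and SRSF11 0.07 on the deposited scale, and neither passed. These values average opposite differences. SRSF5 had 457, 216 and 307 TPM in the K5-Tert, Tert-123 and WT pools, and SRSF11 had 74.5, 32.3 and 44.9 TPM. For both genes the K5-Tert tumours lay below the K5-Tert pool, while Tert-123 and Braf tumours lay above the Tert-123 and WT pools. HNRNPA2B1 too was lower in K5-Tert tumours than in their pool and higher in Braf tumours than in the WT pool. Whether the Braf difference changes with the Tert allele was not tested. HNRNPK, at 224, 162 and 172 TPM in the K5-Tert, Tert-123 and WT pools, HNRNPAB, at 272, 188 and 157 TPM, and HNRNPA2B1, at 372, 219 and 236 TPM, did not pass either, and the K5-Tert pool was the highest of the 3 for each. Of the SR-related proteins TRA2B (-0.73 ± 0.25) and TRA2A (-0.81 ± 0.30), a pair of related splicing activators, were lower in tumours, and of the kinases CLK1 (-0.83 ± 0.30) was. 6 of 24 U1, U2 and Sm proteins were higher and 0 lower, led by SNRPG (1.29 ± 0.28), SNRPC (1.16 ± 0.29) and SF3B5 (0.76 ± 0.20), and 8 were higher with TMM-type factors. With 1 library left out, that count was 3 (without the Tert-123 pool) to 7. In those fits 768 to 1826 of all 7825 genes were higher, with 881 higher without the Tert-123 pool. The SR-related count of 2 fell to 0 without Braf tumour 1 or the K5-Tert pool, when 720 and 469 of all 7825 genes were lower. The kinase count of 1 ranged from 0 to 3, with 0 also without the K5-Tert pool, while the number of all genes lower ranged from 469 to 901.

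**Figure D5:**
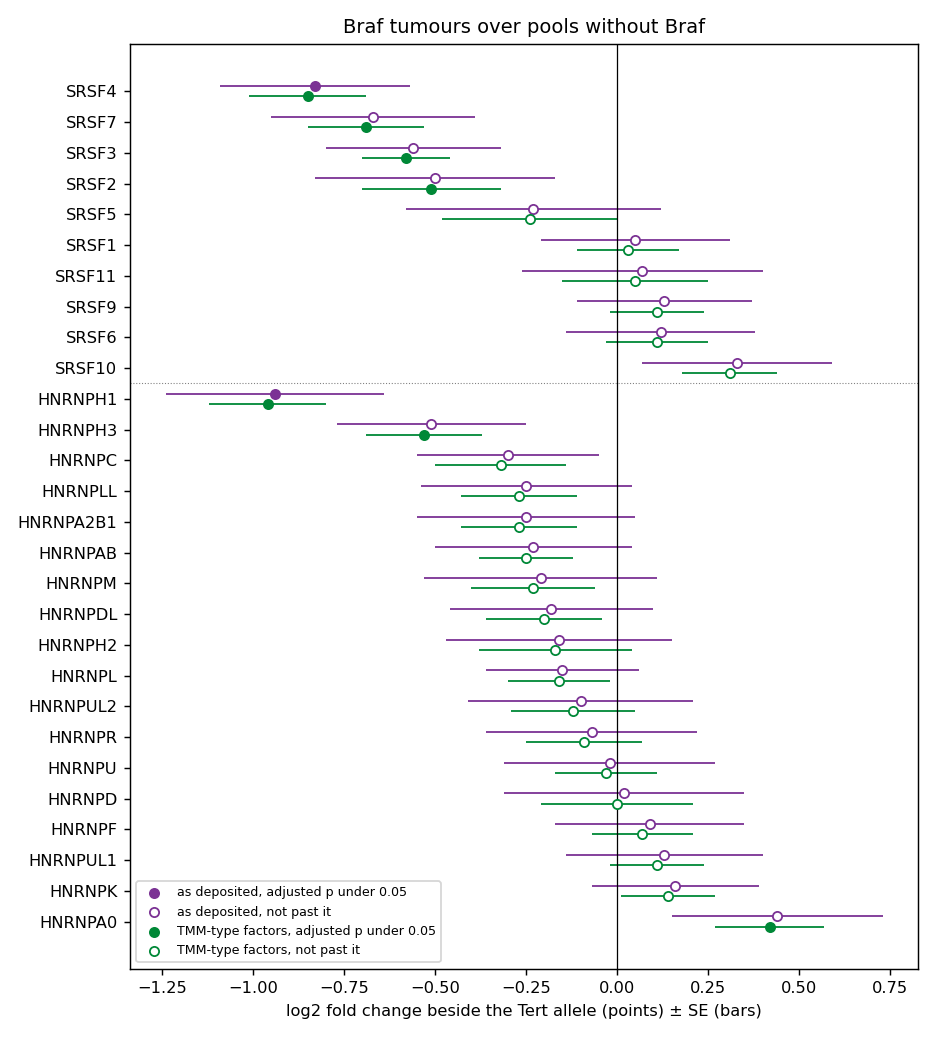
Log2 fold change of tumours with BrafV600E over pools without it, beside the Tert allele (x axis; points, bars ± SE), for the 28 genes tested, SR genes above the dotted line; filled points passed an adjusted p of 0.05. HNRNPH1 and SRSF4 are lowest at -0.94 and -0.83 on the deposited scale, and HNRNPA0 is highest at 0.44.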

How the data were processed

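The table deposited by the authors holds 1 value per gene symbol and library; each column sums to 1000000, so the deposited values were read as TPM. Aligner, counting method, build and annotation were not given in the sources used here. 26 of 23652 entries bear a date as their name and were dropped (up to 0.0455% of TPM). Genes reaching 10 TPM in at least 4 libraries were fitted as log2(TPM + 1), which understates changes of low genes, with limma 3.58.1 (R 4.3.3, mean-variance trend, two-sided, Benjamini-Hochberg over 7825 genes). The 3 tumour groups shared 1 fit (12 residual degrees of freedom); a fit of the 18 libraries with terms for Braf and the Tert allele gave tumours over pools (14 residual degrees of freedom). TMM-type factors trimmed 30% of log ratios and 5% of mean levels at each end. The other scalings were quantile normalization, rescaling without Rpph1, and removal of each library's mean and length trend. Alternatives were pseudocounts of 0.5 and 5, no filter, a 50 TPM filter, separate fits, an Xist covariate, library weights and left-out libraries; TMM-type factors with left-out libraries were added after the data were seen. The code was tested on simulated data. GENCODE M21 gave lengths and copies, RefSeq the promoters. Libraries are numbered within groups in accession order. The genes and lists were chosen with earlier results of these data known. Named by rule were the highest genes, those of smallest p per comparison, those of widest range and up to 3 per list; SRSF6, PTBP1 and the subfamily relatives were named after their values were seen. A gene and a sequence are not reported here.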

Additional observations from a re-analysis of the deposited data

Results flagged for a closer look

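HNRNPC, an hnRNP that binds runs of uridine, had 72.6 TPM in Tert-123 tumour 7, where the next highest of the 7 Tert-123 tumours had 40.8 TPM. That gap is 0.651 of the group's range, above Dixon's critical value for 7 libraries. HNRNPD, which binds AU-rich elements, had 27.2 TPM in Braf tumour 3, where the next highest of the 4 Braf tumours had 22.3 TPM. That gap is 0.901 of the range, above the critical value for 4 libraries. Both gaps were examined on the deposited scale only. With TMM-type factors HNRNPD had 22.3 in Braf tumour 3 and 22.9 in Braf tumour 1, so tumour 3 was not the highest. HNRNPC still had 55.1 in Tert-123 tumour 7, with 37.3 the next highest. The 2 genes stood out among 84 groups of libraries examined, 1 per tested gene and tumour group. Chance alone marks about 1 in 20 groups. Neither gene passed the Tert-123 over Braf comparison.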

How the results depend on the processing

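Main counts follow, with the number of all genes called in the same direction in brackets, of 7825 unless stated. For K5-Tert over Braf tumours 14 of 28 were lower (1662). This count became 9 of the 18 still tested with a 50 TPM filter (162 of 1749) and 8 with the length trend removed (430 of 7773). It was 7 with the 2 groups fitted alone (477), 4 with Xist as a covariate (221) and 27 with library weights (4900). With 1 library left out it was 6 to 23 (388 to 3607). Without K5-Tert tumours 2 and 4 it was 0 (17), or 4 with TMM-type factors (115). For K5-Tert over Tert-123 tumours, 17 (2230) became 11 of 18 with the 50 TPM filter (241 of 1749) and 10 with TMM-type factors (688). The count was 10 with quantile normalization (510), 9 with the length trend removed (509 of 7773) and 7 to 23 with 1 library left out (525 to 4048). Without K5-Tert tumours 2 and 4 it was 0 (17), or 1 with TMM-type factors (90). For tumours over pools, 2 lower (786) became 6 with TMM-type factors (1450), 5 with quantile normalization (1432) and 4 without Rpph1 (1142 of 7824). The count was 10 with the length trend removed (1943 of 7773), 1 with library weights (1062) and 0 to 3 with 1 library left out (469 to 901). With TMM-type factors it was 6 without the Tert-123 pool (1206), 5 without the K5-Tert pool (1334) and 5 without the WT pool (1202). The 0 higher (1205) became 1 with TMM-type factors (1701), 1 with quantile normalization (1326) and 9 with library weights (3327). The higher count was 0 to 3 with 1 library left out (768 to 1826) and 1 without K5-Tert tumours 2 and 4 (1854). With TMM-type factors without the K5-Tert pool it was 2 (1532). SRSF1 and HNRNPUL1, lower in the main fit of K5-Tert over Tert-123 tumours, turned sign under some alternatives. SRSF1 had 0.01 with the length trend removed and 0.05 with TMM-type factors and tumour 1 alone. HNRNPUL1 had 0.05 with TMM-type factors without tumours 2 and 4. In tumours over pools, HNRNPH2 (-0.16) and HNRNPU (-0.02) did not pass in the main fit. With library weights they passed as higher (0.59 and 0.44). The cause was not tested. For Tert-123 over Braf tumours the count was 0 under every alternative run. No paired analysis was possible because the labels give no replicate numbers that tie libraries of different groups. The read depth is unknown, so no counting error is given, and the sex and batch of libraries are not in the labels.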
